A study of Arabidopsis thaliana with 12 samples.

Results

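The 67 features described here are the 50 genes and 17 transposable elements that the authors' deposited tables list as changed in both nrpe1 and idn2-1 and do not list as changed in swi3b +/-. They were chosen by that listing alone, out of 1618 identifiers listed in at least 1 of the 3 tables. Among all features tested, 1.88% were listed in nrpe1 and 3.18% in idn2-1. The 67 make up 13.2% of the 509 features in the authors' deposited nrpe1 table and 7.59% of the 883 in the idn2-1 table. Of 135 identifiers listed for both mutants, the other 68 are also in the swi3b +/- table. Because listing chose the features, their direction and fold are given as a description and carry no test.

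RNA was sequenced from whole Arabidopsis thaliana seedlings 2 to 3 weeks old, grown in long days, after depletion of ribosomal RNA from total RNA. The groups were nrpe1, idn2-1, the heterozygote swi3b +/- and the wild type Col-0, with 3 biological replicates each. The sample numbers of idn2-1 stand apart from the unbroken run of the other genotypes, Col-0 included. Any difference in handling between them cannot be told apart from genotype in the idn2-1 folds. The labels name the idn2-1 allele but not the nrpe1 allele, and give no treatment. Only 1 pooled RPKM value (reads set relative to the length of the transcript and the size of the library) per genotype was used, so no value has a spread between replicates, no replicate check was possible, and the depth is unknown. In whole seedlings, fewer cells of a type and less RNA per cell cannot be told apart.

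RNA-directed DNA methylation silences transposable elements and repeats. RNA polymerase V, whose largest subunit is NRPE1, makes non-coding transcripts at target loci; small RNAs bound to ARGONAUTE proteins pair with these transcripts and guide the DNA methyltransferase DRM2. IDN2 is an RNA-binding protein that acts at the RNA polymerase V step, and SWI3B belongs to the SWI/SNF complexes, which remodel nucleosomes. ROS1 encodes a DNA glycosylase that removes methylated cytosine, and its transcript is known to need an active RNA-directed DNA methylation pathway.

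Before the values, the coding sequences show a property of the element loci that the listing did not use. Most elements listed lower in both mutants lie in loci of protein-coding genes with long purine-rich stretches. The following stretches are the 100 coding bases with the highest share of A plus G in 5 such genes and in AT5G60030, a gene itself listed lower. AT4G16880, the gene at the element that was higher in both mutants, is shown as an example of a lower share. They are written 5′ to 3′ on the coding strand, from the RefSeq TAIR10.1 genome, with runs of at least 8 purines in capitals.
AT4G36520, gene of AT4TE83085 (chr4:17231825-17231924, minus strand): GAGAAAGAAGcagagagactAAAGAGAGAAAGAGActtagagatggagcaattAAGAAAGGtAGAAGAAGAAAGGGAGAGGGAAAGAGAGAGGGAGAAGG
AT3G24080, gene of AT3TE36455 (chr3:8695685-8695784, minus strand): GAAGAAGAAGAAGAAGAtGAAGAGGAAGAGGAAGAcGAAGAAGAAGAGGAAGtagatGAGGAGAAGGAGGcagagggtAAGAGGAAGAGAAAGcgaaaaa
AT1G20920, gene of AT1TE23520 (chr1:7285741-7285840, plus strand): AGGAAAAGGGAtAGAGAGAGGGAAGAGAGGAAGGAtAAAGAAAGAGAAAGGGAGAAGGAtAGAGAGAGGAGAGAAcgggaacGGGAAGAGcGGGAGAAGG
AT4G37820, gene of AT4TE85940 (chr4:17785935-17786034, plus strand): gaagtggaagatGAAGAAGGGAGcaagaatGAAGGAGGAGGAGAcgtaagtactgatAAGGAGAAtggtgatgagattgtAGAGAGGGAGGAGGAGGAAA
LTI78 (AT5G52310), gene of AT5TE76490 (chr5:21243000-21243099, plus strand): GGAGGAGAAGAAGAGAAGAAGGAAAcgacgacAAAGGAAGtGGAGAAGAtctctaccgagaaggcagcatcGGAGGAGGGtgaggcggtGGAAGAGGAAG
AT5G60030, itself listed (chr5:24172153-24172252, minus strand): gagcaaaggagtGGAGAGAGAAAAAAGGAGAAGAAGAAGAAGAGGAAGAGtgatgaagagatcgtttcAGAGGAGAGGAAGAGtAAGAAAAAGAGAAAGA
AT4G16880, gene of AT4TE42895 (chr4:9496573-9496672, minus strand): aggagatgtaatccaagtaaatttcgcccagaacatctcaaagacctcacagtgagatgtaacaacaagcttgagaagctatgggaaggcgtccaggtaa

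The share of A plus G was 94% in the stretch of AT1G20920, 93% in that of AT3G24080, 89% in those of AT4G36520 and AT5G60030, 84% in that of AT4G37820 and 82% in that of LTI78. In AT4G16880 it was 61%, and the stretch has no purine run of 8 bases. RBP31 is not shown and reached 82%, though its element AT4TE59630 was higher in nrpe1. Over all 27444 protein-coding genes the median of this highest share was 66%, with a 5th to 95th percentile of 54% to 78%. Of the 7 stretches shown, 6 lie above the 95th percentile, and that of AT4G16880 lies below the median. The 6 are examples of purine-rich loci, so their place follows from the choice and is not a result. The shares over all loci are given further below.

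Of the 67 features, 46 were lower in both mutants than in Col-0, 16 were higher in both and 5 moved in opposite directions in the authors' deposited tables. Among all features tested, 0.848% were listed lower and 1.04% higher in nrpe1, against 1.95% lower and 1.24% higher in idn2-1. The lower features comprise 31 genes and 15 elements, and the higher ones 15 genes and 1 element. Elements are 25.4% of the 67 features, against 7.47% of the authors' deposited nrpe1 table and 14.6% of the idn2-1 table. The 68 identifiers left out because swi3b +/- lists them too are 66 genes and 2 elements. Elements are 1.91% of the swi3b +/- table. Leaving these identifiers out raised the share of elements, so 25.4% does not describe all features shared by nrpe1 and idn2-1. Of the 50 genes, 43 are protein-coding, 3 are pseudogenes, 2 are annotated as ncRNA, 1 as lncRNA and 1 as snRNA. The features lie on all 5 chromosomes, with 9272 bp between the nearest pair, AT5G24210 and AT5G24240. At 11 of the 67 loci more than 1 gene is annotated, and there reads of overlapping genes cannot be told apart.

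The targeted genes check the labels only in part. NRPE1 (AT2G40030) had 1.01 RPKM in nrpe1 against 3.98 RPKM in Col-0 in the authors' deposited table (q = 0). IDN2 is not listed in the authors' deposited idn2-1 table, so that label could not be checked by its gene. No root, flower or seed marker of the 13 looked for is listed for either mutant. With 1.88% of all features tested listed in nrpe1 and 3.18% in idn2-1, 13 genes are too few for that to check the tissue. Of 3 leaf photosynthesis markers RBCS1B, a Rubisco small subunit, had 560.0 RPKM in idn2-1 against 257.8 RPKM in Col-0 in the authors' deposited table. Its part in the values of the other genes was not tested.

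ROS1 (AT2G36490, chromosome 2, 15308021 to 15314807) had the largest fall in idn2-1, and the largest but one in nrpe1, of the lower genes with values above 0. In the authors' deposited tables it had 0.939 RPKM in nrpe1 against 8.88 RPKM in Col-0, and 0.862 RPKM in idn2-1 against 8.58 RPKM in Col-0. It was thus 9.45-fold lower in nrpe1 and 9.96-fold lower in idn2-1, each with q = 0 as the authors' deposited tables print it. The log2 folds differed by 0.07, with ROS1 about equally low in both mutants.

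The other genes of the pathway were mostly not listed, as were most features. Among all features tested, 1.88% were listed in nrpe1 and 3.18% in idn2-1. A count of 0 or 1 in lists this short therefore says little about a pathway. Of 36 genes of the RNA-directed DNA methylation machinery, 1 was lower in nrpe1 (NRPE1 itself) and 0 were listed in idn2-1 in the authors' deposited tables. Of 6 genes of DNA demethylation, ROS1 alone was lower in nrpe1, while in idn2-1 DML2, a demethylase related to ROS1, and ROS3, an RNA-binding protein of that pathway, were lower as well. DML2 had 3.76 RPKM in idn2-1 against 7.15 RPKM in Col-0, and ROS3 had 5.37 RPKM in idn2-1 against 10.2 RPKM in Col-0, in the authors' deposited table. Of 9 genes that maintain methylation, 0 were listed for either mutant in the authors' deposited tables. Of 13 SWI/SNF subunits and 3 known silenced protein-coding targets, 1 each was higher in nrpe1 (SWI3D and SDC) and 0 were listed in idn2-1. Of 14 jasmonate genes, 1 was higher and 1 lower in nrpe1, and 1 was higher and 2 lower in idn2-1. Of 17 salicylic acid and defence genes, 2 were higher in nrpe1, and 1 was higher and 1 lower in idn2-1. Of 18 circadian clock genes, 3 were higher and 3 lower in nrpe1, and 0 were listed in idn2-1, in the authors' deposited tables. ROS1 is the one gene of the 132 on the lists that is among the 67 features.

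The sequence before ROS1, which fell in both mutants, is shown because cytosines, CG sites among them, are what the pathway methylates. The line gives the 250 bases before the RefSeq start on TAIR10.1, 5′ to 3′ on the gene's strand, with CG, the site at which methylation is maintained through replication, in capitals.
ROS1 promoter (chr2:15314808-15315057, minus strand): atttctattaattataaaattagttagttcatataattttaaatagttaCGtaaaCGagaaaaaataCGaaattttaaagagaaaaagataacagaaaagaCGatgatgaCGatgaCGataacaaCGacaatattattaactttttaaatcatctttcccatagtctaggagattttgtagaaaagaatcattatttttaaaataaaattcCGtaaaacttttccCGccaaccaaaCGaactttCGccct
The ROS1 window holds 11 CG. Over all 27443 protein-coding promoters of this length the median is 5 CG, with a 5th to 95th percentile of 1 to 12, and 96.0% hold at least 1. CG was counted on 1 strand, since it reads the same on both. No methylation values were used, so this count describes the letters only.

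The other lower genes with the largest falls include a nitrilase, a protease inhibitor, a metal reductase and a sugar phosphate phosphatase. AT2G06002, annotated as ncRNA (chromosome 2, 2330776 to 2331479), had 0.581 RPKM in nrpe1 against 9.77 RPKM in Col-0, and 2.90 RPKM in idn2-1 against 8.35 RPKM in Col-0, in the authors' deposited tables. Its 16.8-fold fall in nrpe1 stands beside a 2.88-fold fall in idn2-1, the widest gap among the genes lower in both (log2 difference of -2.54). NIT2, a nitrilase that converts indole-3-acetonitrile to auxin (AT3G44300), had 0.827 RPKM in nrpe1 against 3.44 RPKM in Col-0, and 0.602 RPKM in idn2-1 against 4.35 RPKM in Col-0, in the authors' deposited tables. It was 4.16-fold lower in nrpe1 and 7.23-fold lower in idn2-1, but 4.90-fold lower in idn2-1 when the Col-0 value of the nrpe1 table, scaled to the idn2-1 table, was used.

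AT1G45163, an uncharacterized protein gene, had 3.65 RPKM in nrpe1 against 16.1 RPKM in Col-0, and 2.46 RPKM in idn2-1 against 13.8 RPKM in Col-0, in the authors' deposited tables. A nuclear copy at 95.2% identity matches 68.1% of its span, so reads could be split between the copies. KTI1, a Kunitz trypsin inhibitor (AT1G73260), had 0.918 RPKM in nrpe1 against 3.43 RPKM in Col-0, and 0.650 RPKM in idn2-1 against 3.02 RPKM in Col-0, in the authors' deposited tables. FRO4, a ferric and cupric reductase of the plasma membrane (AT5G23980), had 0.190 RPKM in nrpe1 against 0.941 RPKM in Col-0, and 0.226 RPKM in idn2-1 against 0.804 RPKM in Col-0, in the authors' deposited tables. KTI1 fell more in idn2-1 and FRO4 more in nrpe1.

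GRP3S, a glycine-rich protein gene (AT2G05380), was the most abundant of the lower genes. The authors' deposited tables give it 161.8 RPKM in nrpe1 against 445.4 RPKM in Col-0, and 123.6 RPKM in idn2-1 against 388.2 RPKM in Col-0. TPPB, a trehalose-6-phosphate phosphatase (AT1G78090), was 2.99-fold lower in nrpe1 and 2.50-fold lower in idn2-1 in the authors' deposited tables (1.84-fold with the scaled Col-0 value). AT5G39520 was 2.71-fold lower in nrpe1 and 2.44-fold lower in idn2-1 in the authors' deposited tables. AT1G12730, named in RefSeq for a subunit of the GPI transamidase, was 3.00-fold lower in nrpe1 and 2.36-fold lower in idn2-1 in the authors' deposited tables. The F-box gene AT5G10340, with nuclear copies over 9.82% of its span, was 2.56-fold lower in nrpe1 and 2.28-fold lower in idn2-1 in the authors' deposited tables. The exostosin-family glycosyltransferase AT5G37000 was 2.28-fold lower in nrpe1 and 2.55-fold lower in idn2-1, with the nrpe1 q closest to the threshold among the 67 features (0.0437), in the authors' deposited tables.

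AT5G14940, a transporter of the major facilitator family, and AT3G22160, a VQ-motif protein gene, fell more in idn2-1. AT5G14940 was 1.87-fold lower in nrpe1 and 2.80-fold lower in idn2-1, and AT3G22160 was 1.72-fold lower in nrpe1 and 2.52-fold lower in idn2-1, in the authors' deposited tables. AT5G44470 is listed at 0 RPKM in both nrpe1 and idn2-1 in the authors' deposited tables, against 3.66 RPKM in Col-0 of the first and 3.13 RPKM in Col-0 of the other. A listed 0 can be a failed estimate, so no fold is given. Over the 30 lower genes with values above 0, the median log2 fold was -1.16 in nrpe1 and -1.34 in idn2-1, beside -0.88 for all lower features of the authors' deposited nrpe1 table and -1.24 for those of the idn2-1 table. The fall was larger in idn2-1 for 22 of the 30 genes and larger in nrpe1 for 8. The smallest fold that the authors' deposited tables list is 1.47 for nrpe1 and 1.86 for idn2-1, so the 2 tables admit different sizes of change.

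**Figure D1:**
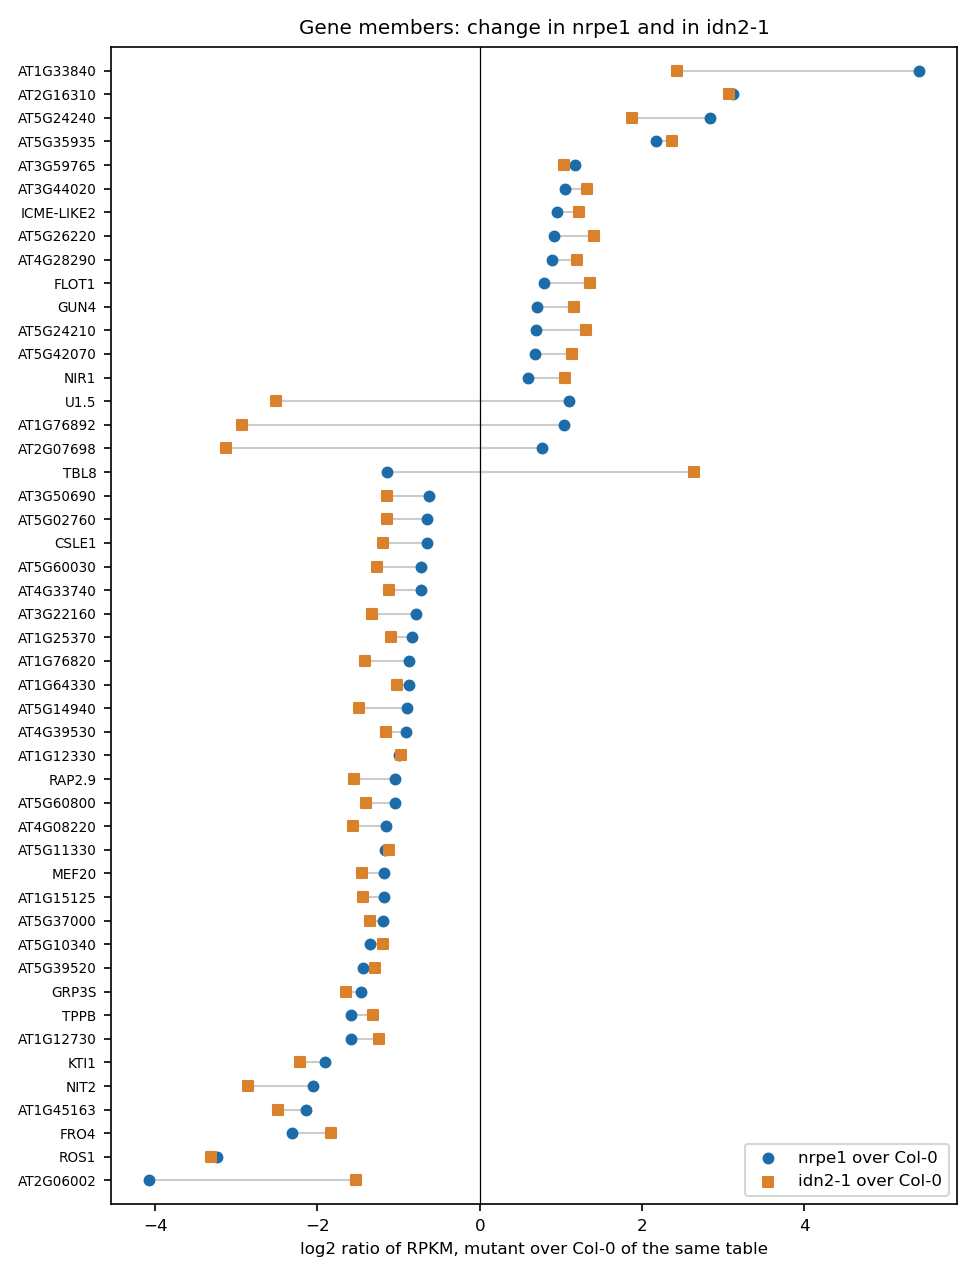
Log2 ratio of RPKM, mutant over Col-0 of the same table (horizontal axis), for the 48 genes with every value above 0; circles are nrpe1, squares idn2-1, and a line joins the 2 values of a gene. ROS1 has nearly the same value in both (-3.24 in nrpe1 and -3.32 in idn2-1), while AT1G33840 and AT2G06002 lie much farther from 0 in nrpe1, and 4 genes have their values on opposite sides of 0.

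Of the higher genes, 5 were below 1 RPKM in Col-0 in both tables (BAP2 at 0). Of all features listed higher, 44 (15.7%) were below that level in Col-0 of the authors' deposited nrpe1 table and 43 (12.5%) in that of the idn2-1 table. AT1G33840, a gene for a LURP-one-like protein (chromosome 1, 12283862 to 12285306), had 27.9 RPKM in nrpe1 against 0.656 RPKM in Col-0, and 3.03 RPKM in idn2-1 against 0.561 RPKM in Col-0, in the authors' deposited tables. That is 42.5-fold higher in nrpe1 and 5.41-fold higher in idn2-1. AT2G16310, a transcribed pseudogene (chromosome 2, 7065216 to 7066190), had 4.997 RPKM in nrpe1 against 0.576 RPKM in Col-0, and 4.13 RPKM in idn2-1 against 0.492 RPKM in Col-0, in the authors' deposited tables. Its rises, 8.67-fold in nrpe1 and 8.39-fold in idn2-1, were close to each other.

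AT5G24240, named in RefSeq for a phosphatidylinositol 4-kinase, had 2.69 RPKM in nrpe1 against 0.377 RPKM in Col-0, and 1.19 RPKM in idn2-1 against 0.322 RPKM in Col-0, in the authors' deposited tables. The pseudogene AT5G35935 had 1.78 RPKM in nrpe1 against 0.393 RPKM in Col-0, and 1.73 RPKM in idn2-1 against 0.335 RPKM in Col-0, in the authors' deposited tables. BAP2, whose protein associates with the membrane protein BON1 and restrains cell death (AT2G45760), is listed at 0 RPKM in Col-0 of both authors' deposited tables, with 1.31 RPKM in nrpe1 and 0.948 RPKM in idn2-1. Here too a listed 0 can be a failed estimate, so no fold is given. AT1G33840 and AT5G24240 rose more in nrpe1, and AT5G35935 rose 4.53-fold in nrpe1 and 5.15-fold in idn2-1.

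The other higher genes changed by smaller folds, between 1.51 and 2.26 in nrpe1 and between 2.05 and 2.66 in idn2-1, and include genes of chloroplast and nitrogen metabolism. GUN4, a regulator of chlorophyll synthesis and of signalling from plastid to nucleus (AT3G59400), had 132.9 RPKM in nrpe1 against 81.2 RPKM in Col-0, and 155.9 RPKM in idn2-1 against 69.4 RPKM in Col-0, in the authors' deposited tables. NIR1, the nitrite reductase (AT2G15620), had 69.5 RPKM in nrpe1 against 45.9 RPKM in Col-0, and 84.1 RPKM in idn2-1 against 40.5 RPKM in Col-0, in the authors' deposited tables. FLOT1, a flotillin of plasma membrane microdomains (AT5G25250), was 1.73-fold higher in nrpe1 and 2.56-fold higher in idn2-1 in the authors' deposited tables. All 3 rose more in idn2-1.

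AT5G26220, a gene of the ChaC-like family that degrades glutathione, was 1.89-fold higher in nrpe1 and 2.66-fold higher in idn2-1 in the authors' deposited tables. AT5G24210 was 1.62-fold higher in nrpe1 and 2.48-fold higher in idn2-1, and AT4G28290 was 1.86-fold higher in nrpe1 and 2.29-fold higher in idn2-1, in the authors' deposited tables. AT3G44020, named in RefSeq for a thylakoid lumenal protein, was 2.08-fold higher in nrpe1 and 2.50-fold higher in idn2-1, and AT5G42070 was 1.60-fold higher in nrpe1 and 2.20-fold higher in idn2-1, in the authors' deposited tables. ICME-LIKE2, a prenylcysteine methylesterase (AT3G02410), was 1.94-fold higher in nrpe1 and 2.33-fold higher in idn2-1 (3.10-fold with the scaled Col-0 value), in the authors' deposited tables. The ncRNA AT3G59765 was 2.26-fold higher in nrpe1 and 2.05-fold higher in idn2-1, with the idn2-1 q closest to the threshold among the 67 features (0.0429), in the authors' deposited tables. Its locus overlaps that of the element AT3TE89880, listed in idn2-1 with 137.6 RPKM against 42.6 RPKM in Col-0. Reads of this gene and of that element cannot be told apart. Over the 14 higher genes with values above 0, the median log2 fold was 0.94 in nrpe1 and 1.32 in idn2-1, beside 0.95 and 1.22 for all higher features of the authors' deposited nrpe1 and idn2-1 tables.

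All 15 elements lower in both mutants fell more in idn2-1 than in nrpe1. AT5TE76490, in the locus of LTI78, a gene induced by cold and drought (chromosome 5, 21240849 to 21243613), had 1453 RPKM in nrpe1 against 2700 RPKM in Col-0, and 203.4 RPKM in idn2-1 against 2306 RPKM in Col-0, in the authors' deposited tables. It was 1.86-fold lower in nrpe1 and 11.3-fold lower in idn2-1. AT4TE35370, in the locus of GR-RBP2, a glycine-rich RNA-binding protein gene, had 1755 RPKM in nrpe1 against 2904 RPKM in Col-0, and 334.5 RPKM in idn2-1 against 2399 RPKM in Col-0, in the authors' deposited tables. These 2 elements had the highest Col-0 levels of the 15 per unit length.

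AT4TE85940, in the locus of AT4G37820, had 227.7 RPKM in nrpe1 against 377.6 RPKM in Col-0, and 44.9 RPKM in idn2-1 against 322.8 RPKM in Col-0, in the authors' deposited tables. AT5TE11225, in the locus of the splicing-factor gene AT5G09880, had 573.9 RPKM in nrpe1 against 916.5 RPKM in Col-0, and 122.6 RPKM in idn2-1 against 779.6 RPKM in Col-0, in the authors' deposited tables. AT5TE19990, in the locus of DOT2, a SART-1 family gene of the splicing machinery, had 43.4 RPKM in nrpe1 against 103.0 RPKM in Col-0, and 13.1 RPKM in idn2-1 against 85.7 RPKM in Col-0, in the authors' deposited tables. Its 2.37-fold fall in nrpe1 was the largest there among the elements.

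AT3TE21410 lies in the locus of HCF243, a gene for photosystem I biogenesis, and was 1.67-fold lower in nrpe1 and 5.50-fold lower in idn2-1 in the authors' deposited tables. HCF243 itself was listed in idn2-1, with 32.7 RPKM in idn2-1 against 83.7 RPKM in Col-0 in the authors' deposited table, a 2.56-fold fall. AT1TE68390 (AT1G55460, a Kin17-type nucleic acid binding protein) was 1.82-fold lower in nrpe1 and 4.53-fold lower in idn2-1 in the authors' deposited tables. AT3TE30150 (DDL, an FHA-domain protein of microRNA biogenesis) was 1.99-fold lower in nrpe1 and 4.32-fold lower in idn2-1 in the authors' deposited tables. AT3TE06050 (AT3G05130) was 1.62-fold lower in nrpe1 and 4.30-fold lower in idn2-1 in the authors' deposited tables.

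AT4TE83085 (AT4G36520, a DnaJ-domain protein) was 1.97-fold lower in nrpe1 and 3.87-fold lower in idn2-1, and AT4TE63170 (AT4G26630, a DEK-domain chromatin protein) was 1.57-fold lower in nrpe1 and 3.53-fold lower in idn2-1, in the authors' deposited tables. AT1TE11020 (AT1G10320, a CCCH zinc finger protein) was 1.82-fold lower in nrpe1 and 3.06-fold lower in idn2-1 in the authors' deposited tables. The smallest gaps were those of the remaining 3 elements. AT2TE41390 (AT2G22795) was 1.66-fold lower in nrpe1 and 2.57-fold lower in idn2-1, and AT3TE36455 (AT3G24080, a KRR1 family protein) was 1.58-fold lower in nrpe1 and 2.25-fold lower in idn2-1, in the authors' deposited tables. AT1TE23520 (AT1G20920) was 1.76-fold lower in nrpe1 and 2.37-fold lower in idn2-1 in the authors' deposited tables. Over the 15 elements the median log2 fold was -0.74 in nrpe1, with a range of -1.25 to -0.65, and -2.11 in idn2-1, with a range of -3.50 to -1.17, in the authors' deposited tables. The median difference was 1.32 on the log2 scale, against 0.27 over the 30 lower genes. All lower features had medians of -0.88 in nrpe1 and -1.24 in idn2-1, with smallest listed folds of 1.47 and 1.86. The authors' deposited tables list 28 elements lower in nrpe1 and 106 in idn2-1. Folds of the other lower elements were not summarised, so the gap is not shown to be particular to the 15.

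AT4TE42895, in the locus of the leucine-rich repeat gene AT4G16880, is the element that was higher in both mutants. It had 83.8 RPKM in nrpe1 against 39.3 RPKM in Col-0, and 77.3 RPKM in idn2-1 against 33.6 RPKM in Col-0, in the authors' deposited tables. AT4G16880 itself was 2.26-fold higher in nrpe1 and 2.30-fold higher in idn2-1 in the authors' deposited tables, so the gene and the element moved alike, and the swi3b +/- table lists that gene too.

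**Figure D2:**
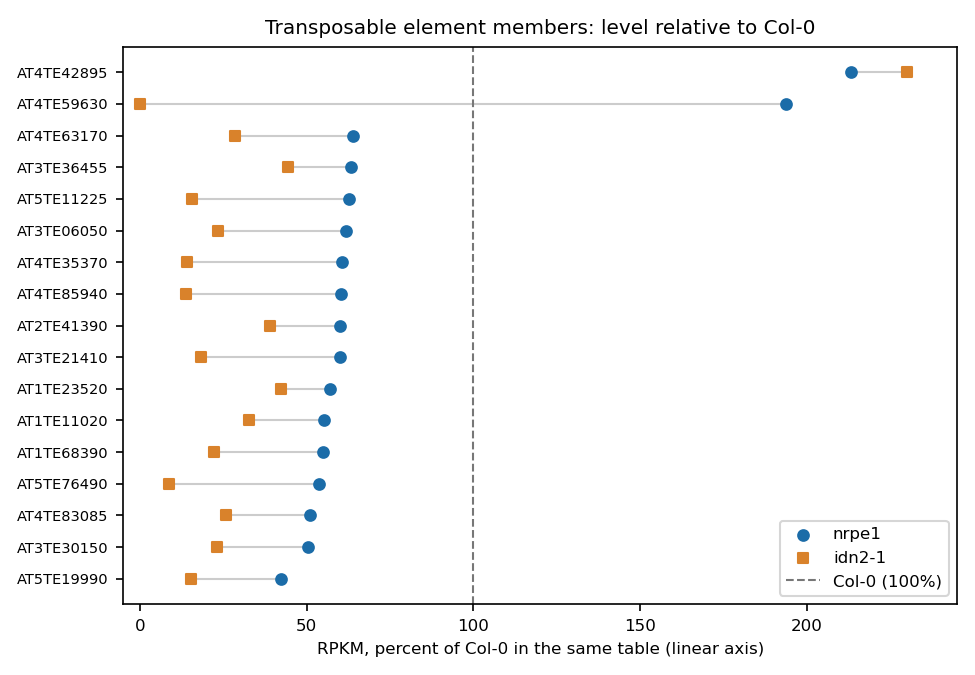
RPKM of each of the 17 elements as a percentage of Col-0 in the same table (horizontal linear axis, dashed line at 100%); circles are nrpe1 and squares idn2-1. For 15 elements both symbols lie left of the line with idn2-1 farther left, AT4TE42895 lies right of it in both, and AT4TE59630 lies right of it in nrpe1 and at 0 in idn2-1.

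All 17 element loci overlap a protein-coding gene. Positions of the elements within their loci were not used, and the sources used here do not say whether reads were counted by strand. Reads of an element and of the gene around it cannot be told apart. The gene of the locus is itself listed for 1 of the 17 elements in nrpe1 and for 2 in idn2-1 in the authors' deposited tables. The gene AT1G64330, lower in both mutants, shares its locus with AT1TE78550, an element listed for all 3 mutants with 161.3 RPKM in idn2-1 against 1134 RPKM in Col-0 in the authors' deposited table.

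The purine-rich stretches shown above are common to these loci. The 15 lower element loci hold 16 protein-coding genes, and 13 of them (81.2%) have 100 coding bases with at least 78% A plus G, against 5.36% of all protein-coding genes. The median of the highest share was 85.5% in the 16 genes. Their coding sequences were longer, with a median of 1986 bases against 1056 in all genes, but among the 9115 genes of greatest coding length the share at 78% or more was 7.86%. That comparison does not match the length of single exons, within which the windows were taken. Over the whole coding sequence the median A plus G share was 63.6% in the 16 genes against 52.3% in all genes, and the median longest purine run was 25.5 bases against 12. The stretches below 78% were in GR-RBP2 (75%), HCF243 (77%) and AT1G20923 (47%), which shares its locus with AT1G20920. At the elements not lower in both mutants, the highest share was 61% in AT4G16880 and 82% in RBP31. A purine-rich stretch was thus not confined to the lower elements.

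Of the 29 lower protein-coding genes 7 (24.1%) reached 78%, namely AT1G64330, AT1G76820, GRP3S, AT3G50690, AT4G33740, AT5G60030 and AT5G60800, which were singled out after their values were seen. Of the 12 higher protein-coding genes 0 did, where the highest was 74%. Among elements lower in nrpe1 alone, 1 of 11 genes at their loci (9.09%) reached 78%, and among those lower in idn2-1 alone 63 of 88 (71.6%) did. AT1G77710 among the 11 and AT3G49100 among the 88 have no measured share and were counted as not reaching 78%. Of those 88 genes, 3 also lie at elements lower in both mutants, and without them 61 of 85 (71.8%) did. In the authors' deposited idn2-1 table as a whole, 22.7% of lower and 1.42% of higher protein-coding genes reached it, and the nrpe1 list had 12.2% of lower and 5.24% of higher ones at that level. No test was made of these shares.

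**Figure D3:**
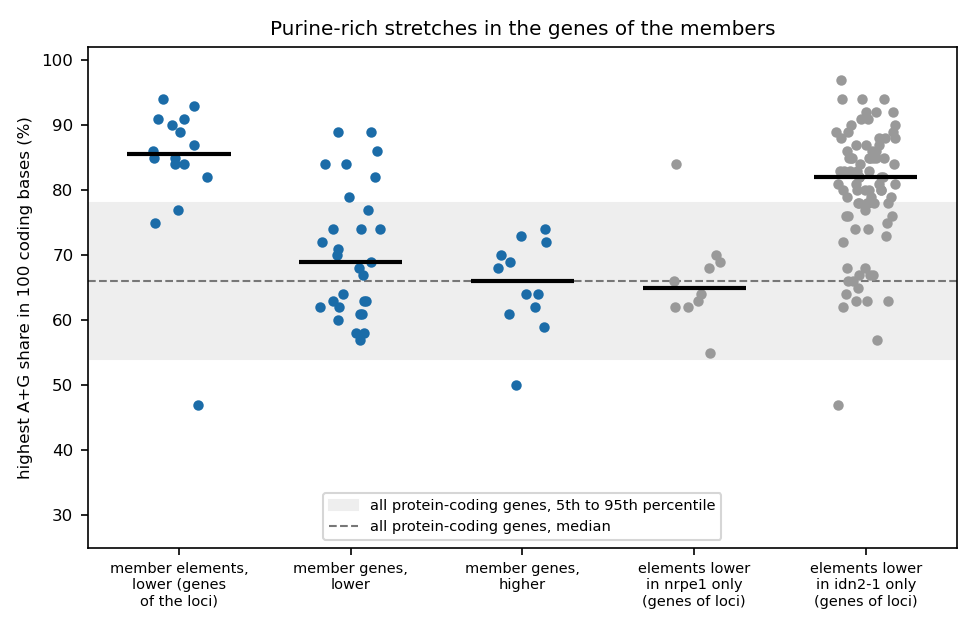
Highest A plus G share in 100 coding bases (vertical axis, percent) for each protein-coding gene, in columns for the loci of lower elements, the lower genes and the higher genes among the 67 features (blue), and for loci of elements lower in 1 mutant alone (grey). Bars are medians, at 85.5%, 69%, 66%, 65% and 82%, and the band is the 5th to 95th percentile of all protein-coding genes, 54% to 78%.

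The log2 difference between the mutants was set beside the purine content, within elements and within genes, since these form separate groups. Among the elements, the 13 at 78% or more had a median log2 fold of -0.81 in nrpe1 and -2.10 in idn2-1, and the 2 below 78% had -0.73 in nrpe1 and -2.65 in idn2-1. The widest gaps were thus not at the most purine-rich loci, and the 2 richest, AT1TE23520 at 94% and AT3TE36455 at 93%, had the smallest. Among the genes, the 7 at 78% or more had a median log2 fold of -0.87 in nrpe1 and -1.26 in idn2-1, and the 21 below had -1.18 in nrpe1 and -1.33 in idn2-1. Spearman's rho between the log2 difference and the highest A plus G share was -0.68 over the 15 elements and 0.34 over the 28 genes. These are descriptions across features that share the same libraries and Col-0 values.

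**Figure D4:**
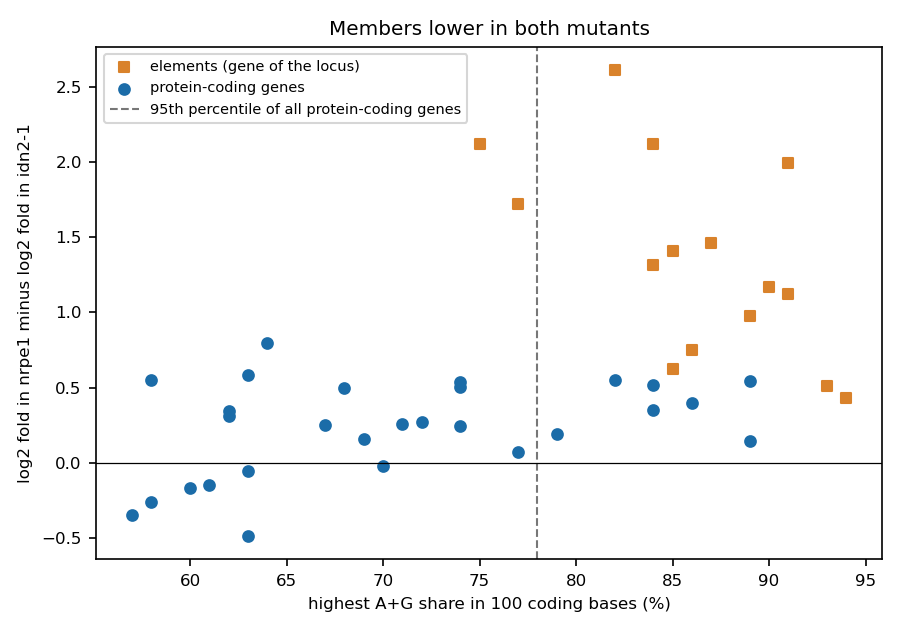
Log2 fold in nrpe1 minus log2 fold in idn2-1 (vertical axis) against the highest A plus G share in 100 coding bases (horizontal axis, percent) for 43 features lower in both mutants; squares are elements, by the gene of their locus, and circles protein-coding genes. Elements lie at 0.43 or above, genes at 0.80 or below, and 13 elements and 7 genes lie right of the dashed line at 78%.

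The 5 features of opposite direction were 2 non-coding RNA genes, 2 protein-coding genes and 1 element. The small nuclear RNA gene U1.5 (AT1G08115) had 386.1 RPKM in nrpe1 against 179.8 RPKM in Col-0, and 27.1 RPKM in idn2-1 against 153.6 RPKM in Col-0, in the authors' deposited tables. U1 RNAs recognise the 5′ splice site, and nuclear copies at up to 97.6% identity cover 100% of this gene, so its reads could belong to another copy. AT1G76892, a long non-coding RNA gene in the locus of the transcription factor gene GT2, had 22.3 RPKM in nrpe1 against 10.9 RPKM in Col-0, and 1.16 RPKM in idn2-1 against 8.82 RPKM in Col-0, in the authors' deposited tables.

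AT2G07698, in the part of chromosome 2 that holds a copy of the mitochondrial genome, had 25.6 RPKM in nrpe1 against 15.0 RPKM in Col-0, and 1.47 RPKM in idn2-1 against 12.8 RPKM in Col-0, in the authors' deposited tables. Mitochondrial sequence at 99.96% identity covers 100% of its span, so reads of the organelle could be counted here. TBL8, a gene of the TRICHOME BIREFRINGENCE-LIKE family of cell-wall acetylation (AT3G11570), had 2.96 RPKM in nrpe1 against 6.53 RPKM in Col-0, and 19.4 RPKM in idn2-1 against 3.11 RPKM in Col-0, in the authors' deposited tables. Its Col-0 values differ the most between the tables, and with the scaled Col-0 value it was 3.48-fold higher in idn2-1 in place of 6.25-fold. Its locus holds 4 annotated genes, and AT3G11560, a LETM1-like gene there, had 13.4 RPKM in idn2-1 against 33.7 RPKM in Col-0 in the authors' deposited table, a change in the other direction. AT4TE59630, in the locus of the chloroplast RNA-binding protein gene RBP31, had 1587 RPKM in nrpe1 against 819.5 RPKM in Col-0, and is listed at 0 in idn2-1 against 657.6 RPKM in Col-0, in the authors' deposited tables. A listed 0 can be a failed estimate, so its direction in idn2-1 is uncertain.

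The 2 comparisons use Col-0 values that differ between the tables. The idn2-1 table's Col-0 value was 0.856 times that of the nrpe1 table (median of 134 shared identifiers), and for 50 of 66 features described here it lay within 5% of that factor. The extremes were TBL8 at 0.476 and NIT2 at 1.26, with TPPB at 1.16 and ICME-LIKE2 at 1.14. Each fold above was therefore taken within its own table. How the Col-0 values of the tables came to differ was not tested.

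**Figure D5:**
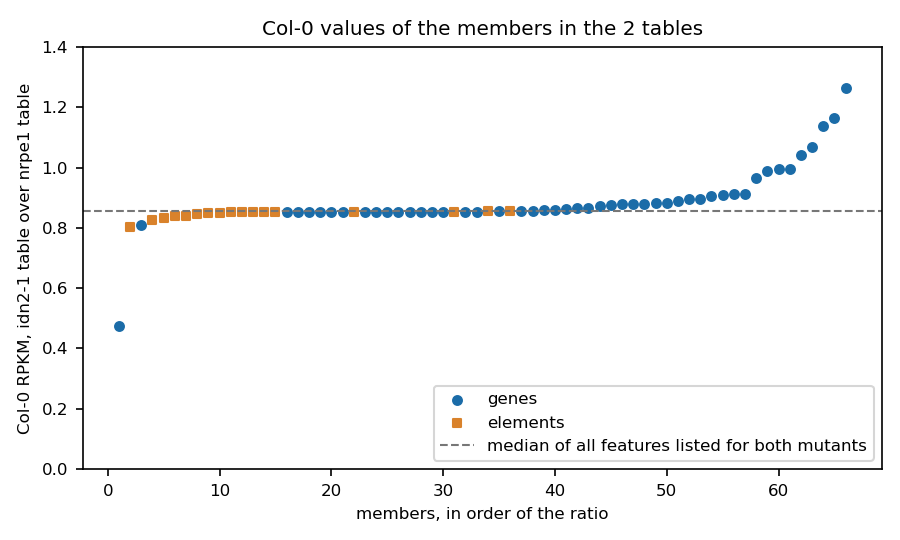
Col-0 RPKM in the idn2-1 table divided by that in the nrpe1 table (vertical axis) for 66 features in order of the ratio (horizontal axis); circles are genes, squares elements, and the dashed line is the median of 134 shared identifiers, 0.856. Most features lie on the line, 1 gene (TBL8) lies at 0.476 and a few genes lie above 1, up to 1.26.

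Stricter readings of the same tables kept part of the features. With q below 0.01, which 1.04% of features tested reached in nrpe1 and 1.47% in idn2-1, 22 were lower and 7 higher in both mutants in the authors' deposited tables. With q below 0.001, reached by 0.555% in nrpe1 and 0.717% in idn2-1, 8 were lower and 3 higher. With at least 2-fold or a value of 0 among listed features (0.781% of those tested in nrpe1, 2.75% in idn2-1), 20 were lower and 8 higher. Features that changed 2-fold without being listed are not counted in these shares. At the edge of the choice, absence from the swi3b +/- table means that a feature either was not tested there or had a q of 0.05 or more. Of 25877 features tested in swi3b +/-, 2.43% were listed. Features listed for both mutants and kept out by a weak swi3b +/- q were MYR2 (q = 0.0439) and AT5G64430 (q = 0.0431) in the authors' deposited table. No value in swi3b +/- was used here for the 67 features, so they are not shown to be unchanged in that genotype.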

How the data were processed

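RNA from 12 seedling samples in 4 genotypes was used as 3 deposited tables of the authors' own comparisons, 1 per mutant. The deposited tables hold, per the file headers, RPKM values for the mutant and Col-0, a log2 fold change, a p-value and a q-value, pooled over replicates. Per the submitters' processing notes, TopHat and Cufflinks were run on TAIR10 (no versions given). The test behind the authors' p-values and q-values is not stated in the labels or headers. The deposited log2 values equal the log2 ratio of RPKM to within 1.24e-05, and where a value is 0 the log2 score is a placeholder that was not used. Depth is unknown, and 0 columns of per-sample values were left unmapped.

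Features in the nrpe1 and idn2-1 tables and not in the swi3b +/- table were selected by identifier (67). Folds were taken within each table. The number of tests behind each table, recovered from p, rank and q assuming the Benjamini-Hochberg procedure, was 27012 for nrpe1, 27755 for idn2-1 and 25877 for swi3b +/-. Coordinates are those of the tables with 1 added to each start. The 50 genes matched RefSeq TAIR10.1 by identifier and overlapped their reference gene, and 124 of the 132 names on the gene lists were those of RefSeq. The highest A plus G share was taken over windows of 100 bases within each coding exon, overlapping exons being merged, a step tested on simulated sequence. No window crosses an exon junction, and coding exons shorter than 100 bases were not searched. Copies were sought with BLAST 2.17.0 at 95% identity over at least 100 bases. Python 3.11.15, pandas 2.3.3, numpy 2.4.6 and matplotlib 3.10.9 were used.

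Named are genes on the lists, features of opposite direction, the 12 higher and 12 lower genes with the largest smaller fold of the 2 tables, genes with a 0, the 5 genes at each end of the difference, and all elements; NIR1 and AT5G42070, which complete the 14 higher genes, were added. The features and lists were chosen with earlier results of these data known. No gene was tested anew.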

Additional observations from a re-analysis of the deposited data

Results flagged for a closer look

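The 5 features on opposite sides of Col-0 in the 2 mutants call for a second look, since nrpe1 and idn2-1 are both mutants of RNA-directed DNA methylation. In the authors' deposited tables the log2 fold over Col-0 was 1.10 in nrpe1 and -2.51 in idn2-1 for U1.5 (AT1G08115), and 1.03 in nrpe1 and -2.92 in idn2-1 for AT1G76892. It was 0.77 in nrpe1 and -3.12 in idn2-1 for AT2G07698, and -1.14 in nrpe1 and 2.64 in idn2-1 for TBL8 (AT3G11570), in the authors' deposited tables. AT3G11560, which shares the locus of TBL8, had -1.33 in idn2-1 in the authors' deposited table. AT4TE59630 had 0.95 in nrpe1 and is listed at 0 RPKM in idn2-1 in the authors' deposited tables, and that 0 can be a failed estimate. The difference between the mutants was not tested for any of them, because the tables hold 1 pooled value per genotype.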

How the results depend on the processing

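Of 50 values under 10 alternative settings, 19 moved little, 31 moved and 0 reversed. Many of these values are counts of features, which have no sign and could not reverse. Counting overlapping loci once kept all 67 features and so repeated the main values. The counts were 16 higher, 46 lower and 5 opposite, and the median log2 folds were -0.78 in nrpe1 and -1.33 in idn2-1, with a median difference of 0.35. With q below 0.01 in both tables, 7 were higher and 22 lower, and the medians were -0.86 in nrpe1 and -1.43 in idn2-1, with a difference of 0.41. With q below 0.001, 3 were higher, 8 lower and 2 opposite, with medians of -1.04 and -1.80 and a difference of 0.43. With at least 2-fold in both tables, 8 were higher, 20 lower and 3 opposite, with medians of -1.18 and -1.40 and a difference of 0.16. These settings keep fewer features by construction. A minimum of 1 RPKM gave medians of -0.76 and -1.32. Genes alone gave -0.85 and -1.19 with a difference of 0.18. Leaving out loci that overlap one of the swi3b +/- table gave -1.34 in idn2-1 and a difference of 0.38. A pseudocount of 0.1 RPKM gave -0.77 and -1.26, and one of 1 RPKM gave -0.71 and -1.09 with a difference of 0.22. The scaled Col-0 value gave -1.30 in idn2-1 and a difference of 0.28. No loci of the 67 features overlap each other. With windows of 50 and 200 coding bases, chosen after seeing the data, the median highest A plus G share of the genes at lower elements was 91% and 81.8%, against 74% and 60.5% in all genes. No paired analysis was possible because the tables hold 1 pooled value per genotype and no column carries a replicate number; leaving out single replicates was not possible for the same reason.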
